A study of Mus musculus with 6 samples.

Results

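The genes described here encode the machinery that licenses and copies DNA. They are 45 genes chosen by name, of 55414 genes listed in the count table, and each matched 1 row by its Ensembl identifier. They fall into 11 groups by role: the MCM helicase, the origin recognition complex (ORC), the MCM loaders with their inhibitor, the origin firing factors, GINS, primase with polymerase alpha, polymerases delta and epsilon, the sliding clamp with its loader (RFC), replication protein A (RPA), the enzymes that join Okazaki fragments, and ribonucleotide reductase. The mRNA came from cells of mouse embryos at E10.5 that carried *Pdx1-Cre*, a transgene that labels pancreatic progenitors, and a Cre-dependent tdTomato at *Rosa26*. The cells were sorted by flow cytometry from the trunk region, and 3 libraries were made from *mir-302* wild-type (WT) and 3 from *mir-302* knockout (KO) embryos. Both genotypes carried *Pdx1-Cre* and tdTomato, and both came from parents heterozygous for *mir-302*. The label marks every descendant of a cell in which the transgene was active, and tdTomato does not test whether a sorted cell still made *Pdx1*. The comparison asked whether cells without *mir-302* held a different amount of mRNA for this machinery.

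In a dividing cell, ORC binds replication origins in G1 and, with CDC6 and CDT1, loads the ring-shaped MCM2-7 helicase onto DNA as an inactive double ring, a step called licensing. Geminin, encoded by *Gmnn*, blocks CDT1 once S phase begins, so that an origin fires only once per cycle. The kinase CDC7 with its activator DBF4 then turns the rings on, CDC45 and GINS complete the helicase, and the polymerases, PCNA, RFC and RPA carry the fork forward. Transcription of many of these genes is driven by E2F factors at the entry to S phase.

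Total counts were 17352498 to 26634523 per library, with KO replicate 2 and WT replicate 2 the shallowest. Of all genes, 16353 passed the filter on low counts, and all 45 replication genes were among them. Levels are given as CPM, counts scaled to library size with TMM factors, which correct for library composition. The genotype labels could not be checked on the deleted cluster: no library had a count of *Mir367* or of *Mir302a* to *Mir302c*, and *Mir302d* had 2 counts in KO replicate 3 only, all under the floor of 3 counts that a count of 0 allows. *Larp7*, the gene in which the cluster lies, averaged 63.3 ± 11.3 CPM over the WT and 61.9 ± 3.61 CPM over the KO libraries (SD, n = 3 each). Its level does not check the deletion either. All 14 markers of pancreatic progenitors had counts in every library, and their summed level was 1976 to 2395 CPM in WT and 2078 to 2623 CPM in KO. The largest parts of the sum were *Cdh1* (568 to 724 CPM in WT, 441 to 711 CPM in KO) and *Epcam* (356 to 506 and 447 to 581 CPM). *Pdx1* was at 90.6 to 106 CPM in WT and 73.1 to 107.5 CPM in KO. *Ptf1a* and *Nkx6-1* were at 0.762 to 4.96 CPM, so the sum says little about these. Of the 14 markers, DESeq2 called *Gata4* (173, 249 and 222 CPM in WT, 342, 334 and 322 CPM in KO) and *Gata6* (10.4, 18.7 and 11.8 CPM in WT, 42.8, 29.8 and 30.4 CPM in KO) higher in KO, with adjusted p of 0.000919 and 3.52e-05, and edgeR called neither (adjusted p = 0.140 and 0.132). Of all genes with an adjusted p, DESeq2 called 4.22% higher and 0.648% lower. The part of *Gata4* and *Gata6* in the values of the 45 genes was not tested. The summed levels of the markers of other cells overlapped between genotypes and were uneven. The 13 erythroid markers summed to 8.53, 16.6 and 16411 CPM in the WT libraries (replicates 1, 2 and 3) and to 6631, 13.3 and 363 CPM in the KO libraries (likewise). The 12 mesenchyme markers summed to 525, 196 and 1102 CPM in WT and 1148, 50.8 and 1078 CPM in KO, with 7 of the 12 at 0 counts in KO replicate 2, among them *Col1a1* and *Col3a1*. The 8 liver markers summed to 655 to 2063 CPM, the 9 neural markers to 58.7 to 175 CPM and the 8 endothelial markers to 1.88 to 30.8 CPM. Over all genes tested, the genotypes did not overlap for 16.4%. Among these markers 2 did not overlap, both lower in KO. They were the neural *Dcx* (8.48, 10.3 and 9.13 CPM in WT, 3.80, 5.47 and 4.03 CPM in KO), which DESeq2 called (adjusted p = 0.00278) and edgeR did not (adjusted p = 0.136), and the mesenchyme marker *Tbx18* (2.87, 5.03 and 10.6 CPM in WT, 2.24, 0 and 2.83 CPM in KO), which neither tool called.

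None of the 45 genes was called between KO and WT. The quasi-likelihood test of edgeR, adjusted over all genes by the Benjamini-Hochberg method, called 0 of the 45 at an adjusted p under 0.05, where it called 0.0% of the 16353 genes. An unadjusted p under 0.05 was reached by 0 of the 45 genes and by 10.4% of all genes. DESeq2 called 0 of the 44 genes to which it gave an adjusted p and 4.87% of all genes with one, and its lowest adjusted p among the 44 was 0.478. The adjusted p of the 45 genes ran from 0.526 to 0.998 in edgeR. In bulk RNA, fewer labelled cells of a kind and less mRNA per cell cannot be told apart.

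The fold changes were small in both directions. In KO, 22 of the 45 genes were higher and 23 lower, and the median log2 fold change was -0.0016, where the median of all genes tested was -0.025. The split moved with the scaling: with RLE size factors 27 were higher, and the medians were 0.016 for the 45 genes and -0.0079 for all genes. All but *Fen1* lay between -0.24 (*Pole*) and 0.22 (*Pold2*). An absolute log2 fold change under 0.25 was found for 44 of the 45 genes (97.8%) and for 62.9% of all genes. The 95% interval lay within 1.5-fold in either direction for 43 of the 45 genes (95.6%) and for 42.4% of all genes, and the exceptions were *Pole* and *Fen1*. The replication genes were also measured more precisely than most: their median standard error was 0.10 and their median level 99.7 CPM, beside 0.20 and 19.0 CPM over all genes.

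**Figure D1:**
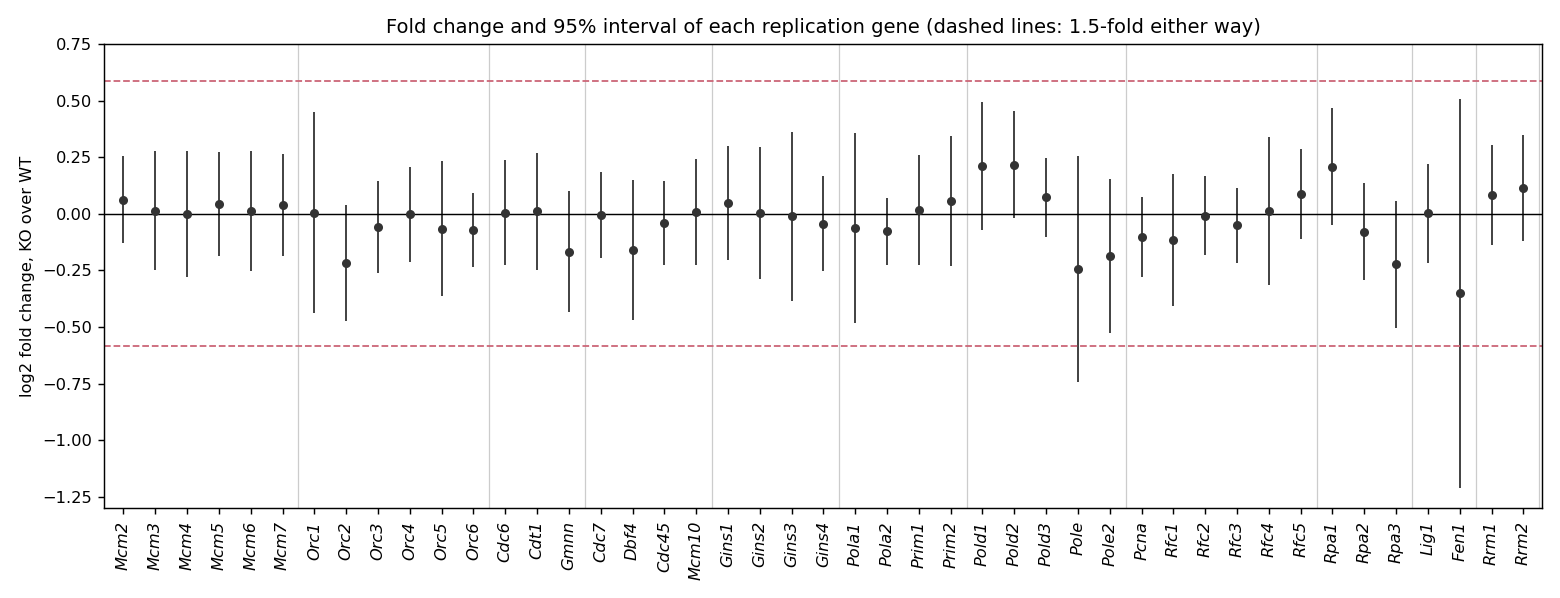
Log2 fold change of each of the 45 genes, KO over WT (points), with its 95% interval from edgeR (bars), ordered by complex between the vertical lines. The dashed lines mark 1.5-fold in either direction, and only the intervals of *Pole* and *Fen1* cross one of them.

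The 6 MCM genes had log2 fold changes close to 0. MCM2 to MCM7 form the ring that unwinds DNA, 1 copy of each per ring. *Mcm2*, which had the largest absolute difference of the 6, had 656, 628 and 655 CPM in the WT libraries and 685, 626 and 713 CPM in the KO libraries, each given here in the order of replicates 1 to 3. Its lowest library and its highest were both KO, so the genotypes overlapped. The fitted difference was a log2 fold change of 0.06 (standard error 0.08, 95% interval -0.13 to 0.26, adjusted p = 0.891 in edgeR). *Mcm6* measured 702, 672 and 749 CPM in the WT libraries, with 746, 609 and 788 CPM in the KO libraries, and *Mcm4* had 381, 354 and 412 CPM in WT libraries and 386, 329 and 431 CPM in KO libraries. The 6 log2 fold changes ran from -0.0022 to 0.062 with a median of 0.026, and every one of the 6 intervals lay within 1.5-fold. The summed MCM level averaged 3330 ± 119.7 CPM over the WT and 3401 ± 365 CPM over the KO libraries (SD, n = 3 each). The larger spread in KO came from KO replicate 2, the lowest of the 6 libraries for all 6 genes, and KO replicate 3, the highest for all 6. Without KO replicate 2, the median log2 fold change of the 6 was 0.13, and without KO replicate 3 it was -0.02.

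Per kilobase of the longest annotated transcript, the 6 MCM genes ranged as follows, as mean ± SD over the 6 libraries. *Mcm7* was at 193 ± 13.4 CPM per kb, *Mcm2* at 189 ± 9.63, *Mcm6* at 163 ± 14.7, *Mcm5* at 159 ± 11.4, *Mcm3* at 146 ± 13.0 and *Mcm4* at 106 ± 10.4 CPM per kb. The neighbours *Mcm7* and *Mcm2*, *Mcm6* and *Mcm5*, and *Mcm5* and *Mcm3* differed by less than their SDs together, whereas *Mcm4* stood below the others. The 6 ORC genes covered a wider range and lay below every MCM gene. *Orc6* was at 61.7 ± 2.09 and *Orc3* at 42.6 ± 2.76 CPM per kb. *Orc4*, *Orc5* and *Orc2* lay together at 15.6 ± 0.684, 15.0 ± 1.46 and 14.7 ± 1.54 CPM per kb, and *Orc1*, whose protein is the subunit that rises and falls with the cell cycle, was lowest at 7.41 ± 1.11. With the length of the longest protein-coding transcript, an alternative chosen after seeing the data, *Orc5* was at 26.7 and *Orc3* at 57.2 CPM per kb, and *Orc1* stayed lowest. The same lengths put *Mcm2* at 196, *Mcm7* at 193, *Mcm3* at 166, *Mcm6* at 163, *Mcm5* at 159 and *Mcm4* at 106 CPM per kb, so that *Mcm2* and *Mcm3* moved up in the order.

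**Figure D2:**
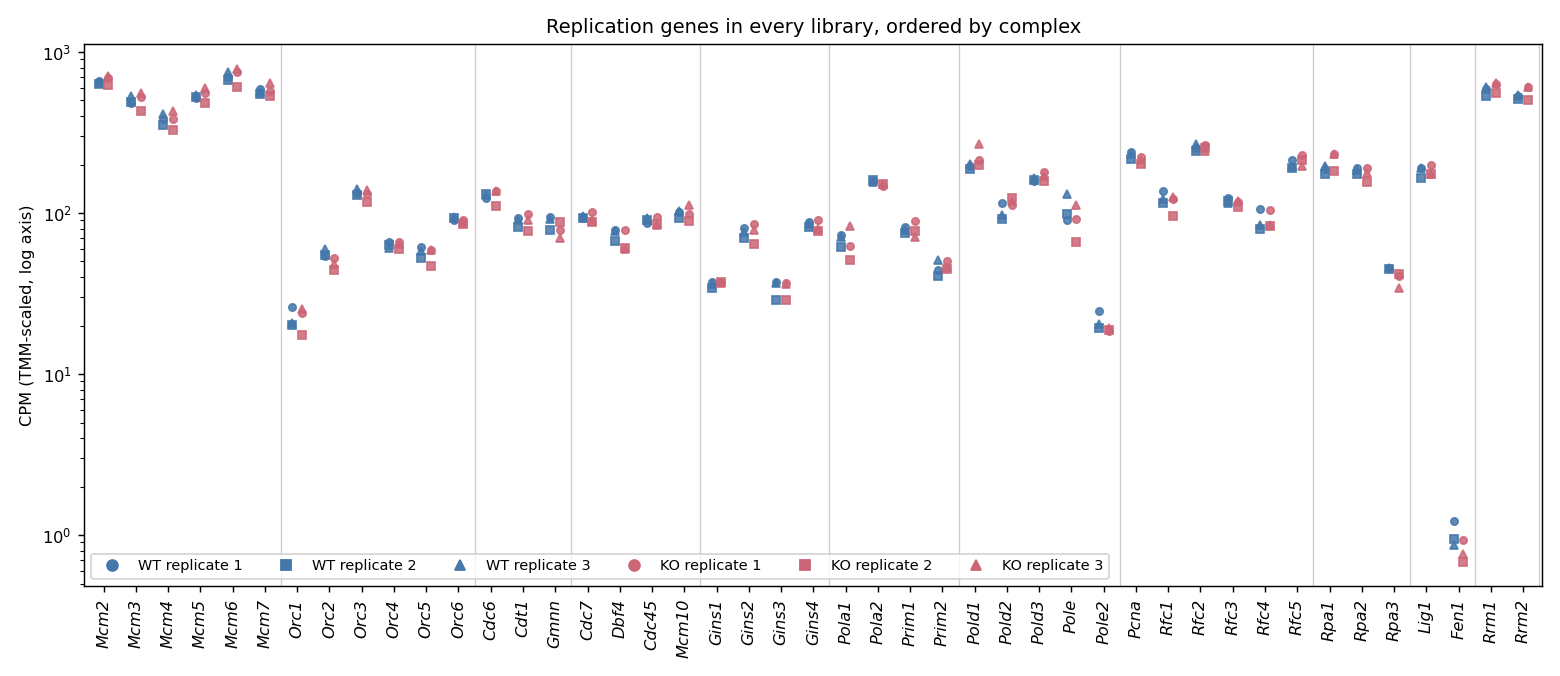
TMM-scaled CPM of each of the 45 genes in every library on a log axis, with WT in blue on the left and KO in red on the right of each gene and the replicate number given by the symbol. Without correction for length, the MCM and ribonucleotide reductase genes lay between 329 and 788 CPM, *Fen1* lay near 1 CPM, and the genotypes overlapped in 41 of the 45 genes.

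ORC, which marks origins for MCM loading, held the gene with the lowest unadjusted p among the lower genes. *Orc2* had WT values of 53.7, 54.7 and 60.2 CPM and KO values of 52.3, 44.2 and 48.4 CPM. All 3 KO libraries were below all 3 WT libraries, the gap between the nearest being 52.3 to 53.7 CPM. edgeR fitted a log2 fold change of -0.22 (standard error 0.11, 95% interval -0.47 to 0.04, adjusted p = 0.563). *Orc6*, with WT values of 90.9, 92.8 and 94.1 CPM and KO values of 90.7, 86.0 and 87.8 CPM, was also without overlap, with a log2 fold change of -0.07. Over the 6 ORC genes the median was -0.06, 5 were lower and 1 higher in KO, and none passed the test. KO replicate 2 was the lowest library for all 6, as for MCM. The exons of *Orc2* share 29.8% of their bases with *Nif3l1* on the opposite strand. Whether the authors counted reads by strand is not given in the sources used here.

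Across all groups, the genotypes did not overlap for 4 of the 45 genes (8.89%), where 16.4% of all genes tested did not. All 4 were lower in KO, *Orc2*, *Orc6*, *Pola2* and *Rpa3*, and 0 were higher, beside 7.99% lower and 8.36% higher over all genes. The count rests on single libraries. Without KO replicate 2, 11 genes were higher and 2 lower without overlap, and without KO replicate 1, 1 was higher and 9 lower, where 28.7% and 23.3% of all genes had no overlap.

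The MCM loaders had log2 fold changes near 0, and their inhibitor a lower one. *Cdc6*, the ATPase that joins ORC to load MCM, measured 123, 130.3 and 129 CPM in the WT libraries, with 137, 111 and 136 CPM in the KO libraries, and *Cdt1*, its partner, had 93.2, 81.3 and 90.4 CPM in WT libraries and 99.0, 77.4 and 90.3 CPM in KO libraries. Both log2 fold changes were 0.01, with intervals of -0.22 to 0.24 and -0.25 to 0.27. Geminin, *Gmnn*, had WT values of 94.5, 78.5 and 92.3 CPM and KO values of 78.6, 87.5 and 70.4 CPM. WT replicate 2 was below KO replicates 1 and 2, and the genotypes overlapped. This gave a log2 fold change of -0.17 (standard error 0.11, 95% interval -0.43 to 0.10, adjusted p = 0.723 in edgeR).

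Of the origin firing factors, *Dbf4*, which activates the CDC7 kinase, had the largest absolute difference. It reached 78.5, 66.8 and 77.0 CPM across the WT libraries against 78.1, 60.8 and 59.9 CPM across the KO libraries. KO replicate 1 lay with the WT libraries and the other KO libraries lay below. The fitted difference was a log2 fold change of -0.16 (standard error 0.13, 95% interval -0.47 to 0.15, adjusted p = 0.786 in edgeR). *Cdc7* itself had WT values of 92.8, 93.0 and 95.2 CPM and KO values of 101, 88.4 and 89.95 CPM. *Cdc45* and *Mcm10*, which join the helicase as it starts, had log2 fold changes of -0.04 and 0.01.

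GINS, the 4-subunit complex that completes the helicase, had log2 fold changes from -0.04 to 0.05. *Gins1* measured 37.3, 34.1 and 36.3 CPM in the WT libraries, with 37.3, 37.1 and 37.0 CPM in the KO libraries, and the log2 fold change was 0.05 (standard error 0.11, 95% interval -0.20 to 0.30, adjusted p = 0.940 in edgeR). The 3 KO libraries of *Gins1* were nearly equal, and WT replicate 2 was its lowest library. *Gins2* had WT values of 81.1, 69.7 and 76.3 CPM and KO values of 85.5, 64.0 and 78.0 CPM. Its exons share 67.3% of their bases with *Gse1* on the opposite strand.

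Primase and polymerase alpha start each new strand with a short primer of RNA and DNA. *Pola2*, the accessory subunit, measured 157, 161 and 155 CPM in the WT libraries, with 146, 151 and 152 CPM in the KO libraries, so that the KO libraries were all below the WT libraries by a few CPM. edgeR fitted a log2 fold change of -0.08 (standard error 0.06, 95% interval -0.23 to 0.07, adjusted p = 0.789). The catalytic subunit *Pola1* varied more, from 61.7 to 72.8 CPM in WT and from 51.0 to 83.1 CPM in KO. The primase subunits *Prim1* and *Prim2* had log2 fold changes of 0.02 and 0.06. The median of the 4 was -0.02, and 0.08 without KO replicate 2.

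The polymerases that extend the primers held both the highest gene and the widest interval outside *Fen1*. *Pold2*, an accessory subunit of polymerase delta, had the lowest unadjusted p of the 45 genes. It reached 115, 91.6 and 97.7 CPM across the WT libraries against 112, 123 and 119 CPM across the KO libraries, and WT replicate 1 lay above KO replicate 1. This gave a log2 fold change of 0.22 (standard error 0.10, 95% interval -0.02 to 0.45, adjusted p = 0.526 in edgeR). *Pold1*, the catalytic subunit, measured 196, 188 and 202 CPM in the WT libraries, with 212, 198 and 269.8 CPM in the KO libraries. Its log2 fold change was 0.21 (95% interval -0.07 to 0.50), and KO replicate 3 was its highest library. *Pold3* had a log2 fold change of 0.07. Of polymerase epsilon, which copies the leading strand, the 45 genes include only the subunits *Pole* and *Pole2*, and both had log2 fold changes below 0. Of the further subunits *Pold4*, *Pole3* and *Pole4*, 2 were higher and 1 lower in KO, with log2 fold changes from -0.09 to 0.11. *Pole* had WT values of 90.4, 98.4 and 130.3 CPM and KO values of 91.5, 65.9 and 112 CPM, a wide spread within each genotype. The fitted difference was a log2 fold change of -0.24 (standard error 0.21, 95% interval -0.74 to 0.26, adjusted p = 0.807 in edgeR), and -0.04 without KO replicate 2. *Pole2* measured 24.7, 19.2 and 20.5 CPM in the WT libraries, with 18.6, 18.7 and 19.3 CPM in the KO libraries.

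PCNA is the clamp that holds the polymerases on DNA, and RFC opens it. *Pcna* had WT values of 238, 218 and 231 CPM and KO values of 224, 202 and 213 CPM, a log2 fold change of -0.10 (95% interval -0.28 to 0.07). *Rfc1*, the large loader subunit, reached 136, 115 and 122 CPM across the WT libraries against 122, 95.3 and 126 CPM across the KO libraries. KO replicate 2 stood apart as the lowest, and the other KO libraries lay among the WT ones. edgeR fitted a log2 fold change of -0.12 (standard error 0.12, 95% interval -0.41 to 0.17, adjusted p = 0.851), and without KO replicate 2 it was 0.02. *Rfc2* to *Rfc5* had log2 fold changes from -0.05 to 0.09.

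The subunits of RPA, which coats single-stranded DNA as a trimer, did not share a direction. *Rpa1*, the large subunit, had WT values of 189, 174 and 196 CPM and KO values of 231, 182 and 232 CPM, a log2 fold change of 0.21 (95% interval -0.05 to 0.47). *Rpa3*, the small subunit, measured 45.5, 44.97 and 45.4 CPM in the WT libraries, with 40.4, 41.9 and 34.1 CPM in the KO libraries. The WT libraries were nearly equal, and all KO libraries were below them. The log2 fold change of *Rpa3* was -0.22 (standard error 0.12, 95% interval -0.50 to 0.06, adjusted p = 0.598 in edgeR). *Rpa2* averaged 184 ± 7.50 CPM over the WT and 174 ± 17.6 CPM over the KO libraries (SD, n = 3 each). Without KO replicate 2, the median of the 3 went from -0.08 to 0.01.

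The 2 genes for Okazaki fragment joining stood far apart in level. *Lig1*, the ligase that seals the nicks, had WT values of 191, 165 and 191 CPM and KO values of 199, 174 and 175 CPM, and its genotypes overlapped (log2 fold change 0.002). *Fen1*, the nuclease that trims the primer flaps, had only 26, 17 and 18 counts in WT and 25, 12 and 14 counts in KO. These are 1.23, 0.950 and 0.874 CPM in WT and 0.932, 0.684 and 0.762 CPM in KO, and the genotypes overlapped. This gave a log2 fold change of -0.35 (standard error 0.37, 95% interval -1.21 to 0.51, adjusted p = 0.847 in edgeR), so a difference of the size seen in the other groups was not detectable at this depth. Per kilobase, *Fen1* was at 0.381 ± 0.0790 and *Lig1* at 57.0 ± 4.08 CPM per kb (SD, n = 6). In GENCODE M21, 78.8% of the exon bases of *Fen1* are shared with *Gm10143*, an antisense gene, which had 17, 7 and 15 counts in WT and 21, 7 and 11 in KO, and 5.37% with *Tmem258*. The part of this overlap in the low counts was not tested. *Gins2*, with an overlap of 67.3% with a different gene, *Gse1* (428 to 595 counts), had 1123 to 2294 counts. As the handling of strand is not known, this says nothing of *Fen1*.

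Ribonucleotide reductase makes the deoxynucleotides. *Rrm2*, its S phase subunit, measured 531, 509.8 and 543 CPM in the WT libraries, with 604, 499.6 and 610.0 CPM in the KO libraries. KO replicates 1 and 3 were above every WT library and KO replicate 2 was below every one. The fitted difference was a log2 fold change of 0.11 (standard error 0.10, 95% interval -0.12 to 0.35, adjusted p = 0.810 in edgeR). *Rrm1* reached 589, 533 and 608 CPM across the WT libraries against 635, 558 and 639 CPM across the KO libraries. Per kilobase, *Rrm2* was the highest of the 45 genes at 251 ± 21.4 CPM per kb.

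The 45 genes as a set were compared between single libraries. Each gene's deviation from its own mean over the 6 libraries was taken as log2(CPM + 0.5), and the median deviation of the 45 genes took the values 0.05, -0.07 and 0.03 over WT replicates 1 to 3, and 0.06, -0.12 and 0.03 over KO replicates 1 to 3. WT replicate 2 and KO replicate 2 were the low ones in their genotypes. The means were 0.0045 in WT and -0.008 in KO, against a pooled SD between libraries of 0.080. KO replicate 2 was the lowest library for 26 of the 45 genes (57.8%) and for 21.6% of all genes tested, and WT replicate 2 for 11 (24.4%), beside 12.2% of all genes. KO replicate 1, WT replicate 1 and KO replicate 3 were the highest for 11, 14 and 12. WT replicate 2 and KO replicate 2 were also the libraries with the fewest counts, 17859163 and 17352498, and with the lowest summed mesenchyme markers, 196 and 50.8 CPM. The part of depth or of other cells in this order was not tested. With both libraries left out, an alternative chosen after seeing the data, edgeR called 0 of the 45 genes and 0 of all 16774 genes tested. Of the 45, 25 were higher in KO, and their median log2 fold change was 0.03, beside -0.0067 over all genes.

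**Figure D3:**
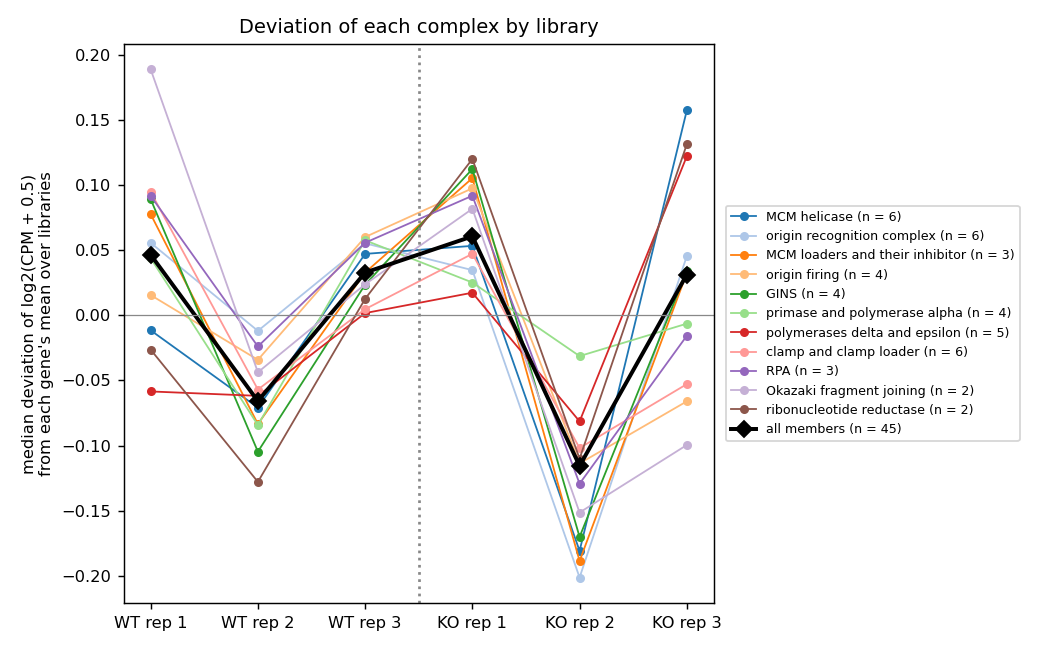
Median deviation of log2(CPM + 0.5) from each gene's mean over the 6 libraries, for each group of genes (thin lines) and for all 45 (black). The lines only link the values of 1 group across libraries, and the values of all 45 were lowest in WT replicate 2 and KO replicate 2, at -0.07 and -0.12.

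The promoters of these genes hold a feature that the choice of genes did not use. In the RefSeq table of promoters (GRCm38.p6, 250 bases before to 50 after each start), 37 of the 45 genes have an entry. The E2F-type motif TTTNNCGC, searched on both strands so that matches on opposite strands may overlap, was found for 15 of the 37 genes (40.5%) and for 5.93% of the 27025 genes in the table. The motif CCAAT, also searched on both strands, was found for 62.2% and 41.1%. The table also holds genes that were not tested here, whereas all 45 genes were, and shares over the tested genes alone were not taken. Among the genes with a match are 4 of the MCM genes, *Orc1*, *Cdc6*, *Cdt1* and *Pola1*. The windows of these genes are shown because they place the same letters beside starts of helicase, loader and polymerase genes. Capitals mark the motif, and each window reads along its gene. The *Mcm3* window is at chr1:20820263-20820284 (minus strand), *Mcm5* at chr8:75109346-75109373 (plus), *Mcm6* at chr1:128359735-128359762 (minus), *Mcm7* at chr5:138171850-138171877 (minus), *Orc1* at chr4:108579417-108579444 (plus), *Cdc6* at chr11:98908003-98908030 (plus), *Cdt1* at chr8:122568037-122568064 (plus) and *Pola1* at chrX:93632276-93632303 (minus).
Mcm3: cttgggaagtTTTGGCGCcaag
Mcm5: cgccaagaacTTTCGCGCcaaaacgtcc
Mcm6: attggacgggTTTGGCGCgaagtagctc
Mcm7: ggtgacgacgTTTCGCGCcaatttcggt
Cdt1: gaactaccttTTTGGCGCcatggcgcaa
Orc1: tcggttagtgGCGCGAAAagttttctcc
Cdc6: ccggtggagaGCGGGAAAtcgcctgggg
Pola1: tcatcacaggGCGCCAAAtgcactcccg
The first 5 windows hold the motif on the strand of the gene and the last 3 on the opposite strand, where it reads GCGNNAAA. A match is a description of the letters only.

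Matches to the seed of miR-302b and miR-302d were found in 8 of the 45 genes. miR-302 pairs through its seed, bases 2 to 8, with matches in 3′UTRs. The mature sequences are from the RefSeq table of miRNAs (GRCm38.p6), with the seed in capitals, and they show what a site has to pair with.
mmu-miR-302b-3p: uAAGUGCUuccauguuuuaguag
mmu-miR-302d-3p: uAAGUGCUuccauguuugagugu
Both share 1 seed, and only this seed was searched. Bases 2 to 8 of mmu-miR-302c-3p, as that table gives it, differ and were not searched. The table holds no mmu-miR-302a-3p. In the longest annotated 3′UTR in GENCODE M21, 8 of the 45 genes (17.8%) have a match of 7 bases, beside 20.6% of the 13768 genes tested with a 3′UTR, and 0 have the full match of 8 bases, beside 3.54%. The 3′UTRs of the 45 genes are also shorter, with a median of 568 bases beside 1184. The 8 genes are *Mcm6*, *Orc4*, *Cdc6*, *Cdt1*, *Gins3*, *Pola1*, *Rfc2* and *Rpa2*. Their log2 fold changes ran from -0.08 (*Rpa2*) to 0.01 (*Mcm6*, *Cdt1* and *Cdc6*), and none had an unadjusted p under 0.05 in edgeR. The 4 matches to bases 2 to 8 of the miRNA are shown with the match in capitals, because they pair with the whole seed.
Cdc6: cctgtgatcccAGCACTTgggaaatagag
Rfc2: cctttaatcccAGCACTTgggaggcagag
Gins3: tgtgcggattgAGCACTTgaagagcagag
Rpa2: cacagtagtaaAGCACTTgcctgccatcc
The *Cdc6* and *Rfc2* windows are the same at 24 of 29 positions. As background, letters of this kind resemble the B1 family of short interspersed repeats, which are spread over the mouse genome. Of the 3771 matches to bases 2 to 8 in the 3′UTRs of all listed genes, 294 (7.80%) follow the 5 bases that precede the match in these windows, ATCCCAGCACTT in all.

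The remaining replication genes were taken from lists written by hand. The 58 further genes cover firing factors, polymerase subunits, fork protection, clamp loaders, nucleases and topoisomerases, chromatin assembly and nucleotide supply. Of these, 57 were tested, and edgeR called 0 of them. In edgeR, 7 were higher and 4 lower at an unadjusted p under 0.05, where 6.42% of all genes tested were higher and 3.97% lower, and DESeq2 called 6 higher and 1 lower, where it called 4.22% and 0.648% of all genes. Their median log2 fold change was -0.004. The edgeR count depended on the filter and on 1 library: 3 were called without the filter on low counts (*Topbp1*, *Mcmbp* and *Wee1*), and 4 without WT replicate 2 (those and *Donson*), all higher in KO. Of all genes, edgeR called 264 of 30187 without the filter and 217 of 17000 without WT replicate 2.

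*Topbp1*, which brings CDC45 to the origin and activates the ATR kinase, measured 121, 131 and 112 CPM in the WT libraries, with 172, 163 and 170.3 CPM in the KO libraries. All KO libraries were above all WT libraries, with the replicates close together. edgeR fitted a log2 fold change of 0.47 (standard error 0.08, 95% interval 0.29 to 0.66, adjusted p = 0.132 in edgeR and 0.000421 in DESeq2). *Mcmbp*, whose protein binds MCM subunits outside the loaded ring, had WT values of 28.9, 61.1 and 29.1 CPM and KO values of 139, 118 and 93.8 CPM, again without overlap. This gave a log2 fold change of 1.56 (standard error 0.31, 95% interval 0.83 to 2.30, adjusted p = 0.134 in edgeR and 5.09e-06 in DESeq2). *Mcm9*, a relative of the MCM genes that works in repair, measured 11.6, 15.7 and 13.5 CPM in the WT libraries, with 23.5, 18.6 and 20.9 CPM in the KO libraries (log2 fold change 0.63, adjusted p = 0.211 in edgeR and 0.0294 in DESeq2), and 19.2% of its exon bases are shared with *Asf1a* on the opposite strand. *Wee1*, the kinase that restrains CDK1, had WT values of 50.9, 75.9 and 50.4 CPM and KO values of 109, 108 and 106 CPM (log2 fold change 0.87, adjusted p = 0.132 in edgeR and 7.57e-05 in DESeq2). DESeq2 also called *Donson* and *Cdc25a* higher, with its own log2 fold changes of 1.15 and 0.59 and adjusted p of 0.00655 and 0.0349.

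Among the lower genes, DESeq2 called *Nasp*, a histone chaperone. It reached 321, 286 and 337 CPM across the WT libraries against 239, 228 and 239 CPM across the KO libraries, without overlap (log2 fold change -0.42, standard error 0.08, adjusted p = 0.134 in edgeR and 0.00704 in DESeq2). The checkpoint genes *Clspn* and *Hus1* and the topoisomerase *Top1* had log2 fold changes of -0.48, -0.33 and -0.32, with KO libraries below all WT libraries in each, and were called by neither tool. *Chaf1a*, a subunit of the chromatin assembly factor at the fork, had a log2 fold change of 0.53, its genotypes overlapped, and neither tool called it.

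The E2F and DP factors, which as dimers bind motifs of the type above, were a list of 10. All 10 were tested, and their median log2 fold change was 0.19, beside -0.025 over all genes. In edgeR, 4 were higher and 1 lower at an unadjusted p under 0.05, where 6.42% and 3.97% of all genes were. It called 0, as it did of all genes. The genotypes did not overlap for 6 higher and 1 lower, beside 8.36% and 7.99% of all genes. DESeq2 called *E2f1* and *E2f5*, both higher, where it called 4.22% of all genes higher. *E2f1*, an activator at the entry to S phase, had WT values of 3.16, 8.21 and 4.27 CPM and KO values of 24.6, 25.1 and 8.60 CPM. The lowest KO library lay just above the highest WT library. The fitted difference was a log2 fold change of 1.90 (standard error 0.50, 95% interval 0.73 to 3.08, adjusted p = 0.196 in edgeR and 0.000763 in DESeq2). *E2f5*, a repressor, measured 22.4, 35.2 and 22.8 CPM in the WT libraries, with 63.0, 49.3 and 44.0 CPM in the KO libraries (log2 fold change 0.96, adjusted p = 0.160 in edgeR and 0.000903 in DESeq2). *Tfdp2*, a dimer partner, had a log2 fold change of 0.27 and *E2f3* of -0.42, and neither was called. The 16 mitotic genes, such as *Cdk1* and *Plk1*, had a median log2 fold change of 0.0074. Of these, 0 had an unadjusted p under 0.05 in edgeR, where 10.4% of all genes did, and DESeq2 called 0, where it called 4.87%.

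**Figure D4:**
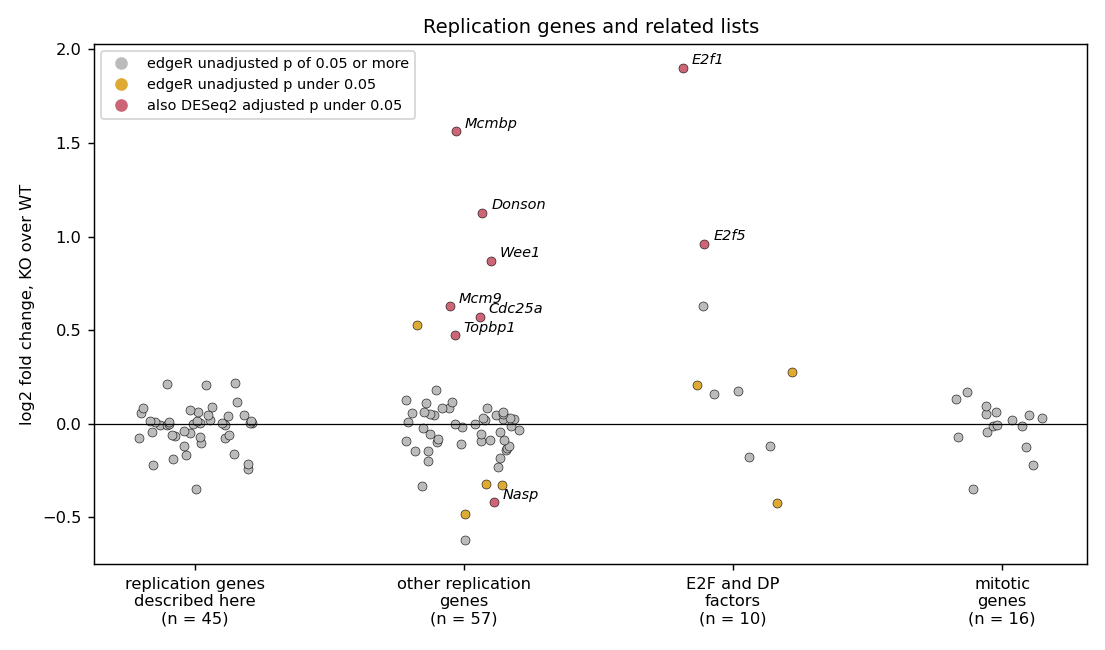
Log2 fold change, KO over WT, of each tested gene of the 45 replication genes and of the lists of other replication genes, E2F and DP factors and mitotic genes (1 point a gene, spread sideways for sight). Grey, yellow and red points mark an edgeR unadjusted p of 0.05 or more, one under 0.05, and an additional DESeq2 call, and the 45 replication genes are grey throughout.

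Base composition was set beside these values. A run of 200 bases that was 75% GC or more lies in the longest protein-coding transcript of 22.9% of the tested genes with such a transcript, and in 1 of the 45 replication genes (2.22%), *Dbf4*, exactly at that bound. It lies in 5 of the 57 other replication genes, among them *Mcmbp* (81.0%), *Mcm9* (78.5%) and *Wee1* (78.0%), and in 5 of the 10 E2F and DP factors, among them *E2f1* (81.5%) and *E2f5* (80.5%). *Topbp1* and *Nasp* do not have one, with 71.5% and 56.5% in their richest 200 bases. The part of GC content in the differences of the GC-rich genes was not tested.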

How the data were processed

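mRNA was measured in 6 libraries of *Pdx1-Cre*, tdTomato-labelled cells at E10.5, 3 WT and 3 KO. Groups follow the genotype in the labels, which do not say that replicates came from separate embryos, so p-values measure the spread between these libraries. SMART-seq v4 cDNA and Nextera XT libraries were sequenced from both ends (150 bp). Low-quality bases were removed by the authors, who aligned reads to GRCm39 with STAR, quantified them with GenomicAlignments and deposited raw whole-number counts per gene. Versions, gene annotation and handling of strand are not given in the sources used here. The floor of 3 counts covers counting error only.

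These counts were fitted across all genes in edgeR 4.0.16 (R 4.3.3) after filterByExpr and TMM scaling, using glmQLFit then glmQLFTest with default settings, genotype as the only term and Benjamini-Hochberg adjustment over all genes. DESeq2 1.42.0 was the alternative. Intervals of 95% are the log2 fold change ± its standard error times the t quantile at 3.26 prior plus 4 residual degrees of freedom. Simulated counts, in which 200 genes were changed by known folds, were used to check both tools. Those folds were larger than that of any of the 45 genes, so detection of changes of their size was not checked. A symbol was found for 94.0% of identifiers. Transcript lengths, GC content, 3′UTRs and exon overlaps came from GENCODE M21 (GRCm38) and promoters and miRNAs from RefSeq (GRCm38.p6), so no coordinates were shared with the counts.

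The 45 genes, the other lists and the tests were chosen with earlier results of these data known, and no list was tested as a set. The genes named with full values were the gene with the largest absolute log2 fold change in each of the 11 groups and, from the other lists, up to 3 genes per direction with an unadjusted p under 0.05 by p. Others are named for their level, their lack of overlap, a DESeq2 call or their role, after their values were seen. Alternatives were DESeq2, RLE factors, no filter, a replicate block, each library left out, and the WT and KO libraries with most hemoglobin RNA (WT replicate 3 and KO replicate 1) left out. edgeR's newer estimate of the spread, the libraries with the fewest counts left out and coding transcript lengths were added after seeing the data. An alternative planned as the older estimate of the spread is the default of this version and equals the fit reported. No exact permutation test was run, since with 3 libraries a group its smallest p is 0.1. Small RNA libraries were not analysed here.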

Additional observations from a re-analysis of the deposited data

How the results depend on the processing

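edgeR called 0 of the 45 genes under every alternative run, and DESeq2 called 0. Of all genes, edgeR called 264 of 30187 without a filter and 217 of 17000 without WT replicate 2. Under its other alternatives it called 0 of all genes, so there the 0 of the 45 is not particular to them. DESeq2 called 4.87% of all genes with an adjusted p. An unadjusted p under 0.05, reached by 0 genes as reported, was reached by 1 with RLE factors (*Pold2*, higher), where 10.47% of all genes did, and by 2 without the WT and KO libraries with the fewest counts (*Gmnn*, lower, and *Rpa1*, higher), where 11.6% did, a setting chosen after seeing the data. Leaving out each library in turn gave 0 to 3, where 7.49% to 11.7% of all genes did. *Pold1*, *Rpa1* and *Rrm2*, all higher, did so without KO replicate 2, *Pold2*, higher, without WT replicate 1 and *Dbf4*, lower, without KO replicate 1. Genes higher in KO numbered 14 without KO replicate 1 and 34 without KO replicate 2, and the median of the 45 ran from -0.05 to 0.07. The labels do not say whether same-numbered libraries were paired. The correlations of their deviations from the genotype means were -0.21, 0.25 and 0.08, and with 3 libraries a genotype these cannot settle it. With the replicate block, 1 of the 45 genes (*Rpa1*) and 2 mitotic genes had an unadjusted p under 0.05, where 10.35% of all genes did. Not every library correlated best with its own number.

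Genes without overlap, 4 as reported, numbered 3 with RLE factors and 3 without a filter, where 16.2% and 11.1% of all genes did not overlap, and 6 to 13 with each library left out, where 23.3% to 28.7% did not. They numbered 14 without the libraries with most hemoglobin RNA and 16 without those with the fewest counts, where 32.6% and 41.3% of all genes did not overlap. Without KO replicate 2, the median of primase and polymerase alpha was 0.078, that of RPA was 0.015 and the log2 fold change of *Rfc1* turned to 0.015. With each library left out they ran from -0.035 to 0.078, from -0.136 to 0.015 and from -0.157 to 0.015. The medians of the other groups, each library left out, lay between -0.26 (Okazaki fragment joining) and 0.19 (ribonucleotide reductase).

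Calls among the other 57 replication genes, 0 as reported, were 7 with DESeq2, 3 without a filter (*Topbp1*, *Mcmbp* and *Wee1*), and 0 to 4 with each library left out, the 4 (with *Donson*) without WT replicate 2. Of all genes, DESeq2 called 4.87%, and edgeR called 264 of 30187 without a filter and 217 of 17000 without WT replicate 2. E2F calls were 2 with DESeq2. Without the hemoglobin-rich libraries, 5 other replication genes and 2 E2F factors had an unadjusted p under 0.05, where 4.84% of all genes did. With each library left out, 8 to 12 other replication genes, 3 to 6 E2F factors and 0 to 3 mitotic genes did, where 7.49% to 11.7% of all genes did. In addition, 1 mitotic gene did without a filter and without the libraries with the fewest counts, where 7.14% and 11.6% of all genes did. The cause of these changes was not tested. Of 312 log2 fold changes of single genes under alternatives, 298 kept their direction and side of the threshold. Apart from DESeq2, no filter and the fit without WT replicate 2, the alternatives called 0 of all genes. There the side of the threshold could not change, so only the direction was compared. The direction changed for 1 of the 312, that of *Rfc1* without KO replicate 2. Of 156 medians, 154 moved by less than the SD between libraries, but 33 changed sign, those of the 45 genes with DESeq2, RLE factors and no filter (0.019, 0.016 and 0.0084) among them. Of 114 counts, 86 stayed within 1.5 times the count reported. Counts of calls are among them, and these could not change under the alternatives that called 0 of all genes. *Fen1* had the fewest counts of the 45 genes, 12 to 26 a library.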
